A study of Mus musculus with 10 samples.

Results

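The regions bound by the homeodomain factor Dlx2 in the mouse olfactory bulb were compared between postnatal day 3 (P3) and embryonic day 16 (E16). The members were all regions of the deposited peak lists of the P3 and E16 bulb on chromosomes 1-19 and X, which came to 732 regions at P3 and 1665 at E16, or 2397 of the 25552 regions on these chromosomes in the 5 Dlx2 lists of the study. A region was called kept when it overlapped a region of the other age by at least 1 bp, and P3-only or E16-only when it did not. By this rule 524 P3 regions and 526 E16 regions were kept, 208 regions were P3-only and 1139 were E16-only. The study sequenced chromatin bound by an anti-Dlx2 antibody from olfactory bulb, cortex and basal ganglia, with 5 immunoprecipitated and 5 input samples, and its title names Dlx1 and Dlx2, the chemokine gene Cxcl14, synapse development and interneuron survival. The P3 group was 1 olfactory bulb library and the E16 group was 1 olfactory bulb library, both from tissue that had been fixed with formaldehyde and sheared. The sources used here give no strain, genotype, sex or number of pooled animals. With 1 library at each age there is no replicate and no test between the ages. The labels name no batch. The peak names of the P3 and E16 lists follow different patterns, and what this reflects is not known. Age and a possible batch therefore cannot be told apart. Read depth is unknown. An unlisted region did not pass the authors' calling threshold, which does not show that it was unbound.

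Dlx2 is a transcription factor of GABAergic neurons, which release the inhibitory transmitter GABA. Most interneurons of the olfactory bulb are GABAergic granule and periglomerular cells that are born in the lateral ganglionic eminence of the embryo and later in the subventricular zone, migrate into the bulb and continue to be added after birth. Homeodomain proteins such as Dlx2 bind DNA through a short core that holds the letters TAAT, and Dlx genes are known to act on each other through enhancers that lie between the paired genes Dlx1 and Dlx2 and between Dlx5 and Dlx6.

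Sequences are shown for 6 gene starts that held a summit, the position of highest signal in a region, because the share of regions at gene starts differed between the classes. They are the 250 bases before the annotated start in RefSeq (GRCm38.p6, the mm10 build), read 5′ to 3′ along the gene, and they were chosen after the regions were known. In the first 3 the capitals mark TAATT on either strand, which reads AATTA on the opposite strand, and TAATTA holds both. Dlx6os1, a noncoding RNA gene with annotated starts on both sides of Dlx6, and Vldlr, a reelin receptor gene, held kept regions. The Dlx6os1 start printed lies between Dlx5 and Dlx6. Msx2, a homeodomain factor gene, held an E16-only region.
Dlx6os1, chr6:6869534-6869783, minus strand: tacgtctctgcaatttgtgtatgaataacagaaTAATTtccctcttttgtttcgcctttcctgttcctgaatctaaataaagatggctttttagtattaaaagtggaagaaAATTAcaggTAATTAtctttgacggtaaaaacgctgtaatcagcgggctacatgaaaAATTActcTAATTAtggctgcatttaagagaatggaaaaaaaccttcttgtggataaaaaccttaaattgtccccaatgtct
Vldlr, chr19:27216234-27216483, plus strand: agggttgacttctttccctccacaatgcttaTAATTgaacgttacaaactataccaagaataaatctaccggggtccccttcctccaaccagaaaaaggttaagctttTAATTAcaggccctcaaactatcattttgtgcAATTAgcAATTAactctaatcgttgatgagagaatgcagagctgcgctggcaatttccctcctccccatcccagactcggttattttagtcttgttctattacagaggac
Msx2, chr13:53472781-53473030, minus strand: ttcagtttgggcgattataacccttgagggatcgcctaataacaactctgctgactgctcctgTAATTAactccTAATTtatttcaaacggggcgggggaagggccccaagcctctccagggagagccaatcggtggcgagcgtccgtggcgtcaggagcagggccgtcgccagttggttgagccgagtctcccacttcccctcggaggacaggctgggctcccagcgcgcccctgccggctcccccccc
In the other 3 the capitals mark CCAAT on either strand, the letters bound by the factor NF-Y, which read ATTGG on the opposite strand. Hsp90b1, which encodes a chaperone of the endoplasmic reticulum, and Sel1l, a component of the pathway that degrades misfolded proteins there, held P3-only regions, and Arntl, a core gene of the circadian clock, held a kept region.
Hsp90b1, chr10:86705445-86705694, minus strand: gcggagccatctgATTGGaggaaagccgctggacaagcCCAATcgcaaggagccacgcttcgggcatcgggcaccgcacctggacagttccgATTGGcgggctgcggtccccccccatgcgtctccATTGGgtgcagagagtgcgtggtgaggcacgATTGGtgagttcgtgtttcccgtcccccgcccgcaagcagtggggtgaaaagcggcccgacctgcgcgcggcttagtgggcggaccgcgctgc
Sel1l, chr12:91849158-91849407, minus strand: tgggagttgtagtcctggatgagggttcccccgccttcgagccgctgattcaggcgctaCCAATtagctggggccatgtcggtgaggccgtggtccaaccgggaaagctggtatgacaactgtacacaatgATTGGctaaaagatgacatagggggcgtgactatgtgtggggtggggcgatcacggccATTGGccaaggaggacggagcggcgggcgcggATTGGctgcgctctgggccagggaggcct
Arntl, chr7:113207215-113207464, plus strand: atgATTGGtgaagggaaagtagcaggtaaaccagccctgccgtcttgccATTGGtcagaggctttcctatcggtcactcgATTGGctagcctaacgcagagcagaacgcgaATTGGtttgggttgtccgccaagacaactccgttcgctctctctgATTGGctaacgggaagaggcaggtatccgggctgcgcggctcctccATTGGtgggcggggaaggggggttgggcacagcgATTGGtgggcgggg

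The printed stretches held 7 matches to TAATT at Dlx6os1, 5 at Vldlr and 3 at Msx2, and 5 matches to CCAAT at Hsp90b1, 4 at Sel1l and 7 at Arntl. The E16 summit lay 105 bp before the start of Dlx6os1, 114 bp before that of Vldlr, 180 bp before that of Msx2 and 164 bp before that of Arntl. The P3 summit lay 201 bp before the start of Hsp90b1 and 123 bp before that of Sel1l. A match is a description of letters and was not tested as a binding site.

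Most regions listed in the P3 bulb were also listed at E16, while most E16 regions were not listed at P3. The E16 list is the longer, so that most of its regions could not have a P3 partner, and shares at equal list length are given below. The kept share was 71.6% of the P3 list (524 of 732 regions, exact Clopper-Pearson 95% interval 68.2 to 74.8%) and 31.6% of the E16 list (526 of 1665, 29.4 to 33.9%). All intervals cover counting error only. The kept regions formed 526 pairs, since 2 P3 regions each met 2 E16 regions. In a kept pair the P3 and E16 summits were a median of 41 bp apart (quartiles 20 and 78 bp), and 446 of the pairs (84.8%) had summits within 100 bp. The summits that lay farthest apart were at Sirt4, a mitochondrial sirtuin gene, where a P3 region of 1356 bp met 2 E16 regions and 1 pair of summits was 803 bp apart.

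The regions strongest at one age were nearly all listed at the other. Strength was ranked within each list by −log10 of the authors' q-value, and the kept share was taken in each of 10 equal parts of the list. In the strongest part 69 of 74 P3 regions (93.2%, 84.9 to 97.8%) and 140 of 167 E16 regions (83.8%, 77.4 to 89.1%) were kept. In the weakest part the counts were 33 of 73 at P3 (45.2%, 33.5 to 57.3%) and 18 of 166 at E16 (10.8%, 6.55 to 16.6%). Among the 100 strongest regions, 93 of the P3 list and 90 of the E16 list were kept, and 46 pairs were in both sets of 100. The kept share fell steeply with rank at E16 and slowly at P3. The lists differ in length, and with both cut to the 732 strongest regions the kept share came to 51.5% of the P3 list and 51.6% of the E16 list.

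**Figure D1:**
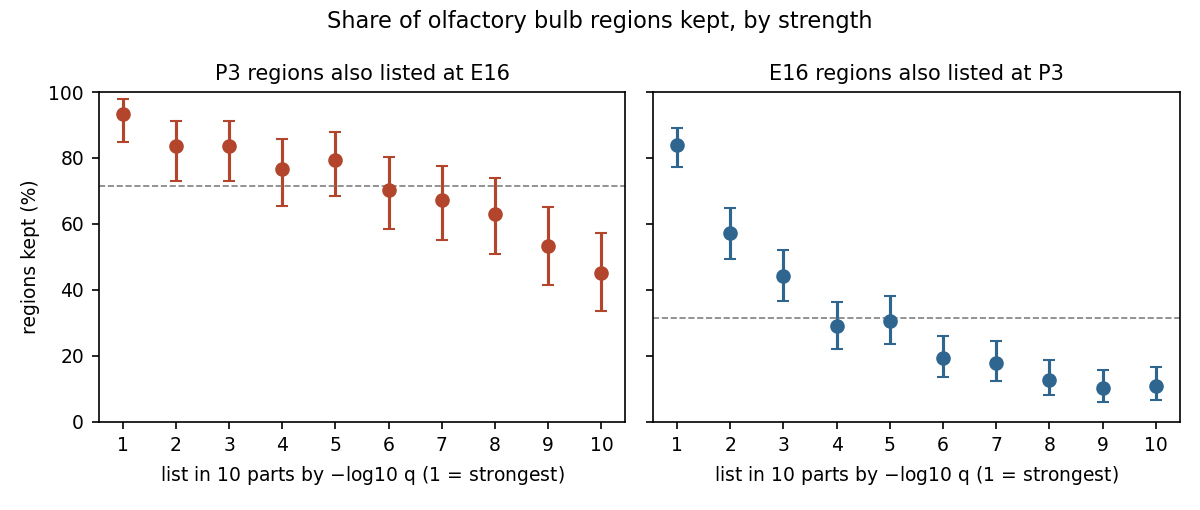
Share of regions kept (%, vertical axis) in each of 10 equal parts of the list by −log10 q (horizontal axis, 1 is the strongest), for the P3 list on the left and the E16 list on the right. Points are shares, bars exact 95% intervals and dashed lines the share over the list, 71.6% at P3 and 31.6% at E16. The strongest part reached 93.2% at P3 and 83.8% at E16.

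The 15 strongest kept pairs, by summed rank, lay near genes of several kinds. Fold enrichment, the authors' ratio of summit signal to local background, belongs to its own list. The pair near Acadsb, an acyl-CoA dehydrogenase gene, had rank 2 in both lists, with a fold enrichment of 18.1 at P3 and 18.0 at E16. The pair 42.1 kb from Sema6a, a transmembrane semaphorin gene, had rank 1 at E16 and a fold enrichment of 11.8 at P3 and 20.5 at E16. Homeodomain and lineage factors included Pbx3 (9.35 at P3, 12.4 at E16) and the LIM-only gene Lmo1 (12.6 at P3, 12.5 at E16). Id4, which encodes an inhibitor of helix-loop-helix factors, was the nearest coding gene of a pair 229 kb away (13.0 at P3, 11.2 at E16). Erbb4, the neuregulin receptor of migrating interneurons, held 1 pair in its body with 11.1 at P3 and 11.6 at E16. Grip1, a scaffold of AMPA receptors, held a pair with 11.6 at P3 and 12.3 at E16. Others lay at or near Dlx6, Eapp, Otud7a, Abcb1a, Adk, Smad2 and Fam171b. Of these 15 pairs, 13 were also in the E16 basal ganglia list and 9 in the P3 cortex list, and none was confined to the bulb lists.

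**Figure D2:**
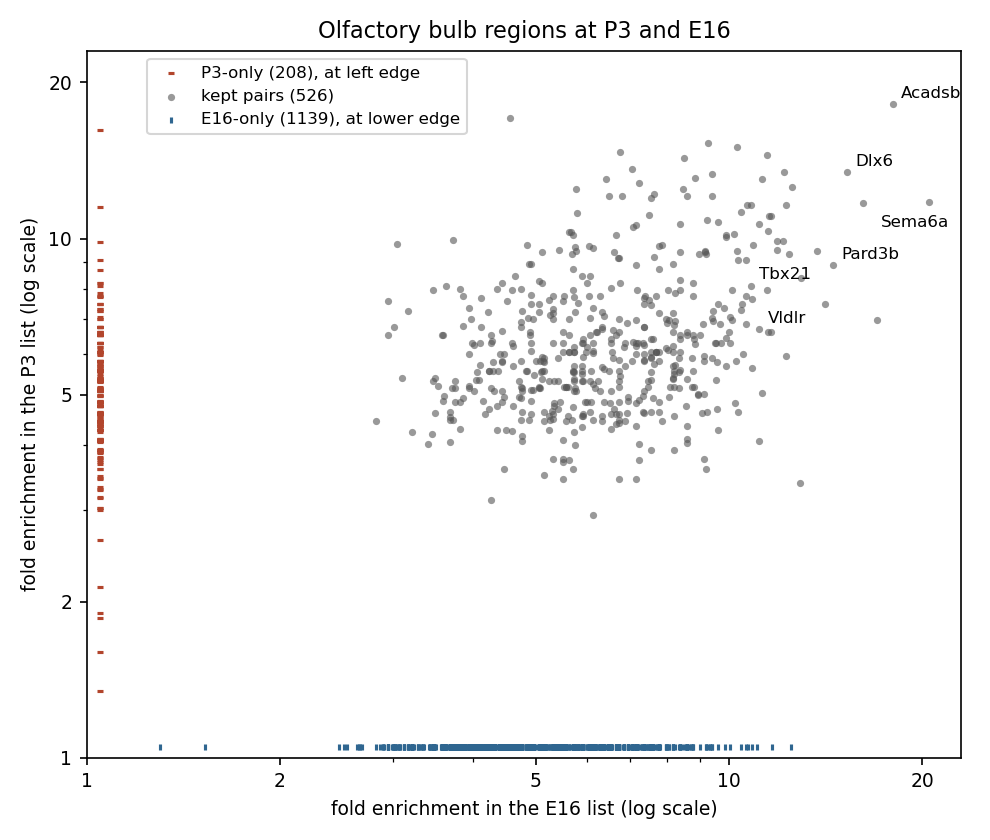
Fold enrichment in the P3 list (vertical axis, log scale) against fold enrichment in the E16 list (horizontal axis, log scale) for the 526 kept pairs (grey points). The 208 P3-only regions are drawn at the left edge and the 1139 E16-only regions at the lower edge at their own value, and selected pairs carry the nearest coding gene, with Acadsb at 18.1 at P3 and 18.0 at E16.

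The Dlx genes themselves differed by locus. At Dlx1 and Dlx2 on chromosome 2 the P3 bulb list held no region within 150 kb, and the E16 list held 5 regions, all E16-only. The strongest of them, chr2:71535891-71536580, had its summit between the genes, 2.20 kb from Dlx1 and 7.23 kb from Dlx2, with a fold enrichment of 10.6 and rank 68 at E16. The other E16 summits lay at 71517189, 71528298, 71530683 and 71538225, with fold enrichments of 6.05, 5.86, 5.90 and 5.74. All 5 overlapped regions of both the P3 cortex list and the E16 basal ganglia list, so the locus was listed at P3 in cortex and not at P3 in bulb. The P3 cortex list is the longer, with 2116 regions against 732, and the part of list length in this difference was not tested.

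At Dlx5 and Dlx6 on chromosome 6 the main region was kept. The P3 region chr6:6869234-6869927 had a fold enrichment of 13.4 and rank 17, and the E16 region chr6:6869067-6870052 had 15.2 and rank 5, with summits 9 bp apart. It lies between the genes, 8.15 kb from Dlx5 and 1.68 kb from Dlx6 at the P3 summit, in the start window of Dlx6os1 printed above. A further kept region 1.49 kb from the other side of Dlx6 had 5.17 at P3 and 8.76 at E16. Regions at 6871833, with a fold enrichment of 6.14, and at 6882148, 0.08 kb from Dlx5, with 7.57, were E16-only. Dlx3 and Dlx4 held no summit at either age. At Cxcl14, the gene of the study's title, neither bulb list held a region within 150 kb.

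P3-only and E16-only regions were weaker and narrower than the kept regions of their own list. The median fold enrichment in the P3 list was 5.08 for P3-only regions and 6.04 for kept regions, and in the E16 list it was 4.91 for E16-only regions and 6.34 for kept regions. The median width was 344.5 bp for P3-only and 400.5 bp for kept regions in the P3 list, and 389 bp for E16-only and 475 bp for kept regions in the E16 list. P3-only summits were a median of 472 kb from the nearest E16 summit, and 1 of 208 came within 1 kb. E16-only summits were a median of 924 kb from the nearest P3 summit, and 2 of 1139 came within 1 kb. The rule itself leaves few near summits, since a region that overlapped one of the other age was kept.

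The classes also differed in where else in the forebrain they were listed. Of P3-only regions 73 of 208 (35.1%, 28.6 to 42.0%) overlapped the E16 basal ganglia list, against 410 of 524 kept P3 regions (78.2%, 74.5 to 81.7%) and 800 of 1139 E16-only regions (70.2%, 67.5 to 72.9%). In the P3 cortex list the order was different, with 51 of 208 P3-only regions (24.5%, 18.8 to 30.9%), 135 of 524 kept P3 regions (25.8%, 22.1 to 29.7%) and 165 of 1139 E16-only regions (14.5%, 12.5 to 16.7%). Regions in the P3 cortex list but not in the E16 basal ganglia list were 16.3% of the P3-only, 7.63% of the kept P3 and 2.99% of the E16-only regions. The E16 cortex list held 4 of the P3-only, 61 of the kept P3 and 80 of the E16-only regions. The basal ganglia list has 14732 regions, the E16 cortex list 6307 and the P3 cortex list 2116, and each is 1 library, so the library moves with these shares and its part was not tested. The length of a list does set their size: with every list cut to 732 regions by −log10 q, 17.2% of P3-only, 47.5% of kept P3 and 33.1% of E16-only regions were in at least 1 other list, against 51.4% of P3-only, 86.1% of kept P3 and 73.2% of E16-only regions in the whole lists.

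**Figure D3:**
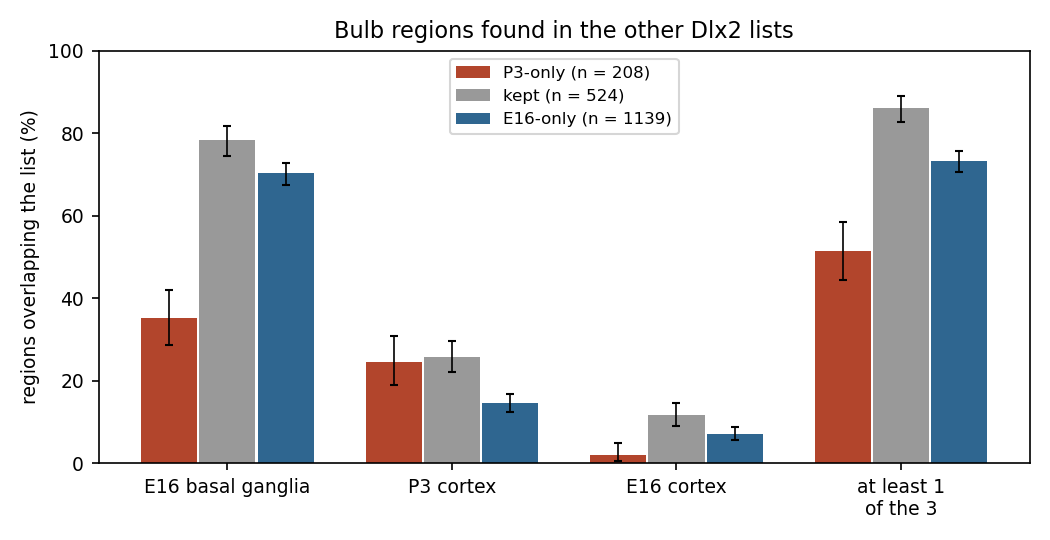
Share of P3-only, kept (P3 list) and E16-only bulb regions that overlap each of the other Dlx2 lists (%, bars, with exact 95% intervals). P3-only regions reached 35.1% in the E16 basal ganglia list, against 78.2% of kept and 70.2% of E16-only regions.

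Regions shared with the basal ganglia also ranked differently inside that list. The basal ganglia region had a median fold enrichment of 5.08 where it met a P3-only region, 9.32 where it met a kept P3 region and 8.01 where it met an E16-only region, against 4.55 over the whole basal ganglia list. It was among the strongest 10% of that list in 15.1% of the cases at P3-only, 51.0% at kept P3 and 42.8% at E16-only regions. In the P3 cortex list the median fold enrichment was 4.15 at P3-only, 6.01 at kept P3 and 4.51 at E16-only regions, against 4.47 over the list. In both of these lists the median was highest where the region met a kept bulb region. In the E16 cortex list it was 6.29 at the 4 regions that met P3-only regions, 5.12 at kept P3 and 4.78 at E16-only regions, against 5.01 over the list.

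Regions listed in neither cortex nor basal ganglia were 101 of 208 P3-only regions (48.6%), 73 of 524 kept P3 regions (13.9%) and 305 of 1139 E16-only regions (26.8%). These shares depend on list length, as the values at 732 regions per list show. The 73 kept pairs of this kind were the regions listed in the bulb at both ages and in no other list. By summed rank the strongest lay in Tbx21, a T-box factor gene of mitral and tufted cells, the projection neurons of the bulb. It had a fold enrichment of 8.12 at P3 and 10.8 at E16, with summits 36 bp apart. The next by summed rank lay in Hs2st1 (10.6 at P3, 8.39 at E16). A pair 22.0 kb from Nek2 was higher than Tbx21 at P3 (12.8 at P3, 7.24 at E16). A pair in Arhgef10 was higher at E16 (5.04 at P3, 11.2 at E16). Others lay in Grin2a, an NMDA receptor subunit gene (5.80 at P3, 9.15 at E16), in Grid1, a delta glutamate receptor gene (5.39 at P3, 8.18 at E16), in Epha5, an ephrin receptor gene (10.2 at P3, 6.67 at E16), in Ncam1, an adhesion molecule of migrating neuroblasts (6.19 at P3, 5.73 at E16), and 90.0 kb from Fzd8, a Wnt receptor gene (7.74 at P3, 6.05 at E16). These genes were picked after their values were seen, and pairs at genes not named here ranked above some of them. The median fold enrichment of the kept pairs listed in the bulb alone was 5.78 at P3 and 5.52 at E16, against 6.06 at P3 and 6.56 at E16 for kept regions that were also in another list.

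P3-only regions lay at gene starts more often than the other classes. Leaving out chromosome 18, for which no start table was used, a summit lay within 1 kb of an annotated start in 39 of 201 P3-only regions (19.4%, 14.2 to 25.6%), 25 of 502 kept P3 regions (4.98%, 3.25 to 7.26%) and 81 of 1101 E16-only regions (7.36%). Over all genes and either gene boundary the shares were 26.0% of P3-only, 11.3% of kept P3 and 10.8% of E16-only regions. P3-only regions at a start and away from one differed in the other lists that held them. Of the 39 P3-only regions at a start, 19 (48.7%) were in the P3 cortex list and 6 (15.4%) in the E16 basal ganglia list. Of the 162 P3-only regions farther from a start, 29 (17.9%) were in the P3 cortex list and 66 (40.7%) in the basal ganglia list. Kept P3 regions at a start were in the P3 cortex list in 20 of 25 cases and in the basal ganglia list in 16 of 25. E16-only regions at a start were in the P3 cortex list in 19 of 81 cases and in the basal ganglia list in 45 of 81. The annotation table gives gene boundaries without exons, so exon and intron were not told apart.

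Summits inside the promoter window itself, 250 bases before to 50 after the start, numbered 34 for P3-only, 15 for kept and 37 for E16-only regions. The genes under P3-only summits included Hsp90b1 (fold enrichment 5.64 at P3), Sel1l (4.46), Derl2 (3.68) and Derl3 (4.49), which encode the chaperone and degradation machinery of the endoplasmic reticulum, and Yif1a (4.29), Vps36 (5.78), Osbp (4.78) and Rab5b (3.61), which act in membrane traffic or lipid transfer. Arrdc4, an arrestin-domain gene (7.73), and Rapgef1, an activator of Rap GTPases (6.30), had the strongest of these regions. Nfya, which encodes a subunit of NF-Y (3.74), Gsk3b, a kinase of Wnt signalling (4.08), and Atp5b, an ATP synthase subunit (4.08), were also among them. Eif2ak3, which encodes the endoplasmic reticulum stress kinase PERK, held a kept region (4.62 at P3, 3.48 at E16). Genes of the endoplasmic reticulum were under E16-only summits as well, such as Dnajb11 (4.64 at E16) and Vapb (3.48 at E16). They were thus not particular to the P3-only class. The genes were named after their values were seen, and no enrichment was tested.

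Kept summits in promoter windows lay at Dlx6os1 (2 windows), Vldlr (6.70 at P3, 11.2 at E16), Arntl (7.04 at P3, 4.86 at E16), Ska2 (9.63 at P3, 5.76 at E16), Kpnb1, a nuclear import receptor gene (4.86 at P3, 4.14 at E16), and Camta1 (4.30 at P3, 3.82 at E16), among others. E16-only summits lay at the starts of some factors of neural progenitors and development, with fold enrichments at E16 of 11.0 at Msx2, 5.37 at Sox1, 4.43 at Pou3f3, 3.76 at Mycn and 3.08 at Sox4. Arid1a, a chromatin remodeller gene (5.12), Dusp6, a phosphatase gene of the ERK pathway (3.72), and Hmgcs1, a sterol synthesis gene (3.81), were also E16-only there, as were genes of general function such as the mitochondrial ribosomal gene Mrps31 (6.29), the RNA polymerase II subunit gene Polr2i (4.59) and the histone gene H3f3b (3.94). These genes were picked after their values were seen. Msx2 ranked 51 in the E16 list, Sox1 894 and Sox4 1633 of 1665. Of the windows, 16 of 34 P3-only, 14 of 15 kept and 8 of 37 E16-only were in the P3 cortex list.

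The letters CCAAT, on either strand, were in 24 of the 34 P3-only windows (70.6%, 52.5 to 84.9%), 12 of the 15 kept windows in the P3 list (80.0%) and 23 of the 37 E16-only windows (62.2%), against 37.6% of all 32619 windows of this length. The homeodomain core TAATT was in 38.2% of P3-only, 40.0% of kept and 35.1% of E16-only windows, against 27.0% of all windows. The longer TAATTA was in 3 of 34 P3-only, 4 of 15 kept and 3 of 37 E16-only windows, against 5.25% of all. A further pattern, CCAAT followed after 9 bases by CCACG, is the known response element of endoplasmic reticulum stress. It was searched after the endoplasmic reticulum genes above had been seen, so its counts describe these windows and test nothing. It was in 2 of the 34 P3-only windows, those of Hsp90b1 and Derl3, and in 0.120% of all windows, and in none of the 15 kept and 37 E16-only windows. The letters GGGCGG, bound by Sp factors, were in 58.8% of P3-only, 40.0% of kept and 54.1% of E16-only windows, against 35.9% of all, and the E-box CACGTG in 8.82% of P3-only, 6.67% of kept and 5.41% of E16-only windows, against 7.20% of all. The median GC content was 62.2% in P3-only, 52.7% in kept and 58.7% in E16-only windows, against 53.0% over all windows, and its part in these shares was not tested.

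**Figure D4:**
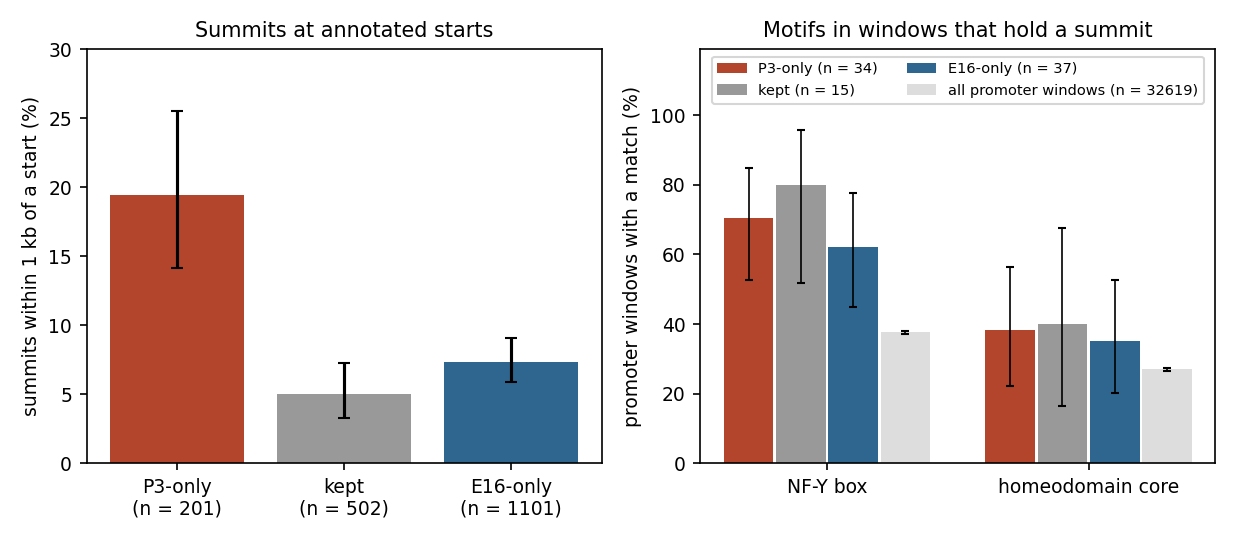
Left, share of summits within 1 kb of an annotated start for P3-only, kept (P3 list) and E16-only regions (%, chromosome 18 left out). Right, share of promoter windows under a summit that hold the NF-Y box CCAAT or the homeodomain core TAATT, beside all windows; bars carry exact 95% intervals. P3-only regions stand at 19.4% on the left, against 4.98% of kept and 7.36% of E16-only regions.

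The strongest P3-only regions were a mixed set. The region 9.72 kb from Igdcc3, an immunoglobulin superfamily gene, had a fold enrichment of 16.2 and rank 7 at P3, and its summit lay 62 bp from the small nuclear RNA gene Gm25313. A region in Sec22c, a vesicle traffic gene, had 11.5 and rank 12. Wide regions of low fold enrichment followed. The region near Col19a1 had 4786 bp and 2.14 (rank 15). A region in Myo3a, an unconventional myosin gene, had 1012 bp and 2.63 (rank 32), with its summit 33.0 kb from Gad2. Myo3a held another region of 1576 bp with 1.90 at rank 138. Others lay in Ctif (8.12), in Dpp10, an auxiliary subunit gene of A-type potassium channels (7.06), in the homeodomain gene Cux1 (8.22), 54.8 kb from the RNA-binding gene Mex3c (8.22), and 133 kb from the antiproliferative gene Btg1 (9.83). Of the 15 strongest P3-only regions 4 were in the E16 basal ganglia list, 6 in the P3 cortex list and 6 in no other list. Whether the wide regions hold reads from sequence present in many copies was not tested.

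The 15 strongest E16-only regions were all in the E16 basal ganglia list, and 6 of them were in the P3 cortex list. The nearest coding genes included Msx2 (fold enrichment 11.0 at E16), Dlx1 (10.6), the zinc finger gene Zfp521 (10.4), Dscam, a cell adhesion molecule of neurites (9.85), the homeodomain gene Shox2 at 225 kb (9.34) and Mef2c, a factor of neuronal differentiation, at 82.9 kb (9.35). Plekha6 (12.5), Bbs9, a component of the ciliary BBSome (11.7), and Ak8, an adenylate kinase gene (10.8), held E16-only regions in their bodies. Plekha6 also held a weaker kept region, 4.64 at P3 and 7.77 at E16.

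Genes were then counted as occupied when a summit lay in the gene body or within 10 kb of it. Of 21631 protein-coding genes 445 were occupied at P3 (2.06%) and 785 at E16 (3.63%), with 300 at both ages (1.39%), 145 at P3 only (0.67%) and 485 at E16 only (2.24%). These shares are the background for the gene lists below, and they follow list length: with both bulb lists cut to 732 regions, 235 genes were occupied at P3 only and 148 at E16 only, the opposite order. Of the 300 genes, 284 held a kept region and 16 were reached by different regions at the 2 ages. Long genes are hit more often: among genes of 300 kb or more 19.6% were occupied at P3 and 35.5% at E16, and among genes under 10 kb 0.633% at P3 and 0.943% at E16. The median length was 29.1 kb for genes occupied at P3 only, 152.4 kb at both ages and 99.0 kb at E16 only, against 17.3 kb for all.

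Every gene of GABA synthesis and transport that was occupied at P3 was also occupied at E16. Gad1, which makes GABA, held a kept region with a fold enrichment of 5.36 at P3 and 8.18 at E16. Gad2, its partner enzyme, had a kept region 0.82 kb away at the P3 summit with 7.01 at P3 and 6.75 at E16. Abat, which breaks GABA down, had 4.70 at P3 and 6.62 at E16. In all 3 of 7 genes of GABA synthesis and transport were occupied at P3 and 4 at E16, against 2.06% and 3.63% of all genes. None of 12 GABA-A receptor subunit genes was occupied at either age.

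Of 28 transcription factors of this lineage 7 were occupied at P3 and 12 at E16, and all 7 were among the 12. The background was 2.06% of all genes at P3 and 3.63% at E16. Beside Pbx3 the 7 factors included Sox6 (6.83 at P3, 8.20 at E16), Npas1 (7.18 at P3, 7.77 at E16), Tshz2 (4.81 at P3, 6.53 at E16), Zfhx3 (5.32 at P3, 6.24 at E16) and Zeb2 (4.86 at P3, 5.31 at E16). Sp9 (4.19 at E16), Meis1 (6.30), Meis2 (3.59), Zfhx4 (3.59) and Npas3 (4.87) were occupied at E16 only. Meis2 had a kept region 135.59 kb away, outside the 10 kb limit, with 12.1 at P3 and 6.82 at E16. Of 18 Notch pathway genes, which hold progenitors undifferentiated, none was occupied at P3 and 2 at E16, Notch1 (4.11) and Maml3 (5.14). The E16 share was 11.1%, against 3.63% of all genes, and rests on 2 genes. Maml3 is longer than 300 kb, a length at which 35.5% of all genes were occupied at E16.

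Of 24 genes of neuroblast migration 6 were occupied at P3 and 10 at E16, against 2.06% of all genes at P3 and 3.63% at E16. Their median length was 148.7 kb. Among all genes of 100 to 300 kb, 6.47% were occupied at P3 and 12.3% at E16, and the part of length in the migration counts was not tested. Erbb4, Ncam1, the repellent gene Slit1 (4.83 at P3, 5.97 at E16) and the semaphorin receptor gene Nrp1 (4.23 at P3, 3.21 at E16) held kept regions, while Plxna4 and Tnr were reached by different regions at P3 and E16. The Slit receptor genes Robo1 (5.91) and Robo2 (4.17), the ligand gene Nrg1 (6.14) and Epha4 (4.76) were occupied at E16 only, though a kept region lay 28.06 kb from Robo2 with 6.29 at P3 and 7.34 at E16. Of 18 genes of survival and apoptosis, a theme of the study's title, Bdnf alone was occupied, at E16 (5.72). This is 5.56% of that list, near the 3.63% of all genes at E16, and rests on 1 gene.

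Synaptic genes, the title's other theme, were counted beside a background of 2.06% of all genes at P3 and 3.63% at E16, an order that turns at equal list length. Of 20 adhesion and scaffold genes 2 were occupied at P3 and 5 at E16. Il1rapl1 was occupied at both ages (8.22 at P3, 8.80 at E16), and Nrxn3 (6.56), Dlg2 (6.34) and Cntnap2 (4.70) at E16 only. Of 15 ionotropic glutamate receptor genes 5 were occupied at P3 and 6 at E16. Those occupied at both ages included Grik1 (6.04 at P3, 7.69 at E16), Grin2a and Grid1, while Gria4 was occupied at P3 only (5.29), and Grik2 (5.14) and Grik3 (5.13) at E16 only. Of 23 potassium channel genes 3 were occupied at P3 and 5 at E16, led by Kcnip4 (10.5 at P3, 7.08 at E16). These are long genes, with median lengths of 380.4 kb for the adhesion and scaffold list and 378.3 kb for the glutamate receptors, so their shares stand beside the 19.6% at P3 and 35.5% at E16 of all genes of 300 kb or more.

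**Figure D5:**
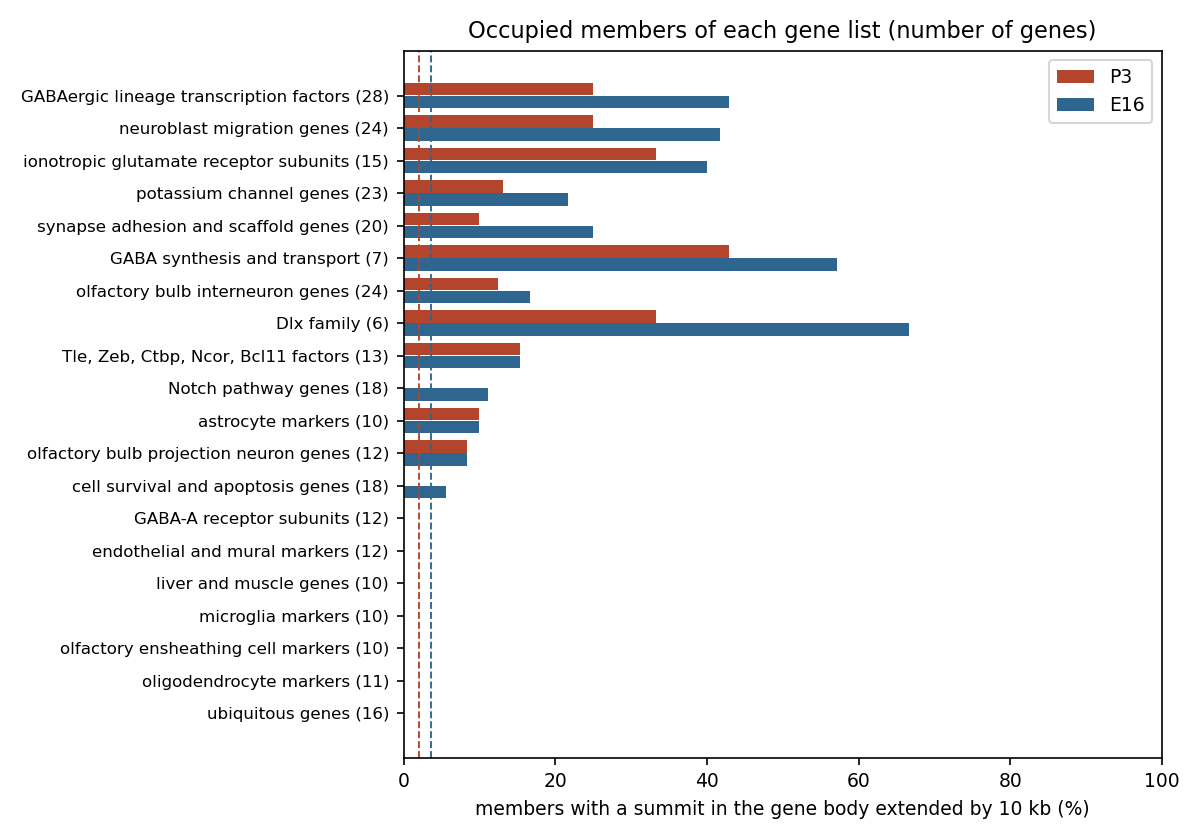
Share of the genes of each list that held a summit in the body extended by 10 kb (%, horizontal axis), at P3 (upper bar, red) and E16 (lower bar, blue), with the number of genes in brackets. Dashed lines give the share of all protein-coding genes, 2.06% at P3 and 3.63% at E16. GABA synthesis genes stand at 3 of 7 at P3 and 4 of 7 at E16.

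Of 24 genes of bulb interneurons 3 were occupied at P3 (12.5%) and 4 at E16 (16.7%), against 2.06% of all genes at P3 and 3.63% at E16. Pnoc, the nociceptin precursor gene, held a kept region (5.99 at P3, 3.93 at E16), as did Nrp1, while Synpr was occupied at P3 only (4.83), and Th, the dopamine synthesis gene of periglomerular cells (5.93), and Meis2 at E16 only. Of 12 genes of projection neurons Tbx21 alone was occupied, at both ages. Of 10 astrocyte genes Slc1a2 was occupied at P3 (7.01) and Slc1a3 at E16 (3.82). The lists for oligodendrocytes (11 genes), olfactory ensheathing cells (10), microglia (10), endothelial and mural cells (12), liver and muscle (10) and ubiquitous genes (16) held no occupied gene at either age. Occupancy shows where Dlx2 was listed and not which cells were present, so the labelled tissue could not be checked from these lists.

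The number of regions per gene was compared in the whole lists, of which the E16 list is the longer with 1665 regions, against 732 at P3. Of the 300 genes occupied at both ages, 56 had more E16 than P3 regions, 4 had more P3 than E16 regions and 240 had equal numbers. Auts2 held 1 region at P3 and 6 at E16, Cdk14 held 1 at P3 and 5 at E16, and Dgkb and Tenm4 each held 2 at P3 and 4 at E16. Gse1 held none at P3 and 6 at E16, and Foxp2, Nrxn3 and Ntm held none at P3 and 4 at E16. Zfp385b, a zinc finger gene, held 3 regions at each age, all kept.

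Small nuclear and nucleolar RNA genes formed a separate group among the kept regions. Of kept P3 regions 26 (4.96%) lay within 1 kb of such a gene, with 8 of the P3-only regions (3.85%) and 3 of the E16-only regions (0.263%). All 26 kept P3 regions of this kind were in the P3 cortex list and none in the E16 cortex list. In the E16 basal ganglia list were 20 of the 26 (76.9%), against 390 of 498 kept P3 regions farther from such genes (78.3%). The 26 include 6 regions at Tex14, which covers Rnu3b and Rnu1a1 genes, 3 at Rdm1 and the pair near Eapp (11.7 at P3, 16.2 at E16). These RNA genes have near-identical copies, between which reads can be divided, so their values are uncertain. Without them, 44 of 200 P3-only (22.0%), 109 of 498 kept P3 (21.9%) and 163 of 1136 E16-only regions (14.3%) were in the P3 cortex list.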

How the data were processed

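The authors deposited 1 list of called regions per Dlx2 library in the narrowPeak layout. Trimmomatic, Bowtie2, SAMtools, MACS2 and the build mm10 are named per the submitters' processing notes. The sources used here give no versions, calling threshold, control of each call or read depth. The deposited fold enrichment is the authors' ratio over local background, and the deposited −log10 p and −log10 q values are those of the summit. The deposited score column was not used. These values describe and rank regions within a list only. The 5 input samples were not analysed here.

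Regions on chromosomes 1-19 and X were used, which left out 2 P3 and 1 E16 bulb regions. Regions overlapping by at least 1 bp were matched, and coordinates are counted from 1. The overlap code was checked on simulated regions and against bedtools 2.31.1. Shares carry exact Clopper-Pearson 95% intervals from SciPy 1.17.1, with pandas 2.3.3 and Python 3.11.15. Genes are from RefSeq (GRCm38.p6), with 21631 protein-coding genes and 32619 start windows of 250 bases before to 50 after the start, none on chromosome 18. All 288 genes of the 20 lists were found in the gene table.

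The members and gene lists were chosen with earlier results of these data known. Named genes were the Dlx genes and Cxcl14, the nearest coding gene at the 15 strongest regions of each class, the occupied list members, genes with 3 or more regions, and the pairs with the most distant summits. Any other gene was named after its values were seen. Alternatives covered the overlap rule, list length, strict −log10 q, wide regions, binning, boundary windows and the gene window. Results at some genes that the rule names are not reported here.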

Additional observations from a re-analysis of the deposited data

How the results depend on the processing

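No paired analysis was possible because each age has 1 library and no comparison was tested, and for the same reason no replicate could be left out. Of the summary results, 62 values stayed within their interval or within 1.5 times under an alternative, and 48 moved. List length mattered most. With every list cut to 732 regions by −log10 q, 51.5% of the P3 and 51.6% of the E16 list were kept, and by fold enrichment 48.6% of the P3 and 48.8% of the E16 list. The share in at least 1 other list then came to 17.2% of P3-only, 47.5% of kept P3, 47.6% of kept E16 and 33.1% of E16-only regions by −log10 q, and to 18.1% of P3-only, 44.9% of kept P3, 45.1% of kept E16 and 27.2% of E16-only regions by fold enrichment. With only the bulb lists cut, an alternative chosen after seeing the data, it was 61.1% of P3-only, 90.5% of kept P3, 90.5% of kept E16 and 84.5% of E16-only regions. At equal length the median fold enrichment of E16-only regions was 6.34, and 235 genes were occupied at P3 only and 148 at E16 only, the opposite order to the whole lists. A −log10 q of at least 5 in the list counted gave 34.1% of E16 regions kept.

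Under a reciprocal overlap of 50% the share in another list was 43.3% of P3-only, 72.3% of kept P3, 78.8% of kept E16 and 58.5% of E16-only regions. With summits within 200 bp it was 69.2% of E16-only regions, and without regions over 1 kb it was 78.0% of kept P3, 78.0% of kept E16 and 66.1% of E16-only regions. Ranked by fold enrichment, 16.9% of the weakest of 10 parts of the E16 list were kept, and with 5 parts 70.6% of the strongest. Counting protein-coding genes only, 18.8% of P3-only, 4.39% of kept P3, 4.56% of kept E16 and 5.79% of E16-only summits lay within 1 kb of a boundary, and 43.8% of P3-only, 49.2% of kept P3, 49.0% of kept E16 and 53.0% of E16-only summits lay outside genes. Within 2.5 kb of a boundary the shares were 18.7% of kept P3, 18.8% of kept E16 and 17.6% of E16-only summits. A gene window of 50 kb gave 566 genes at both ages, 305 at P3 only and 883 at E16 only, no extension gave 67 at P3 only, and the nearest gene alone gave 491 at both ages. Depth, not known here, limits every statement that a region was listed at 1 age only.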

Other observations

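The kept share also varied by chromosome. In the P3 list it ran between 54.3% on chromosome 9 and 90.2% on chromosome 2, where 55 of 61 P3 regions were kept. In the E16 list it ran between 20.0% on the X chromosome, with 3 of 15 regions, and 51.2% on chromosome 19.

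Regions with a fold enrichment under 3 were 6 of the 208 P3-only regions, with a median width of 798 bp, and 1 of the 524 kept P3 regions. They were 23 of the 1139 E16-only regions, with a median width of 338 bp, and 3 of the 526 kept E16 regions.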
